A study of Mus musculus with 12 samples.

Results

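The 10 genes described here are imprinted mouse genes of the embryonic growth network: Peg3, Zim1, Usp29, H19, Dlk1, Meg3, Mest, Plagl1, Cdkn1c and Grb10. They were found among the 48709 gene IDs of the count tables by matching Ensembl IDs to these symbols, and all 10 were present. They were proposed for description because the genotypes of these data differed at Peg3 and its neighbours, so differences between genotypes at the 10 genes are given as a description, without a test. Changes with hypoxia did not enter that choice and were tested. Of the 10 genes, 5 (Peg3, Usp29, Meg3, Mest and Grb10) passed the filter on low counts, which left 14408 genes in all.

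An imprinted gene is read mainly from the copy inherited from one parent. At many such genes the parental copies are told apart by DNA methylation set in the egg or the sperm. Many such genes are active in the embryo, the placenta and young stem and progenitor cells and decline after birth, and several were reported to rise and fall together. Paternally expressed members include Peg3, Usp29, Dlk1, Mest and Plagl1, whereas H19, Meg3, Cdkn1c, Zim1 and, in most tissues, Grb10 are read from the maternal copy. Counts per gene do not separate the parental copies.

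RNA sequencing counted reads per gene in 12 libraries of mouse embryonic fibroblasts (MEFs), cultured cells grown from embryos, of the C57BL/6 strain. The study, whose title names cardiolipin remodeling and HIF-1a, compared isogenic MEFs with and without tafazzin, an enzyme acting on the mitochondrial lipid cardiolipin. There were 4 groups of 3 libraries: WT and TAZKo, each kept in normoxia or placed for 24 hours in a hypoxia workstation. The oxygen level, the number of clones or embryos behind each genotype and whether libraries of a group came from separate cultures are not given in the sources used here, so p-values measure the spread between these libraries, which may be technical.

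Total counts ran from 21039451 to 31204510 per library. The limit that a count of 0 allows, 3 counts (the floor below), was worth 0.0927 to 0.15 CPM (reads scaled to a common library total by TMM) depending on the library, and covers counting error only. The transcript of Taz, which encodes tafazzin, was not lower in the libraries labelled TAZKo (42.2 ± 3.18 CPM, SD, n = 3, in normoxia and 33.8 ± 1.15 in hypoxia) than in those labelled WT (34.6 ± 2.92 and 25.1 ± 1.49 CPM), so genotypes below are the labels' genotypes. WT normoxia library 1 stood apart from its group: leaving it out moved the number of genes called between genotypes in normoxia from 4384 to 4961. Without it Peg3 and Grb10 were at -7.13 and 0.59 in that comparison, against -7.05 and 0.62 with it. Fibroblast markers summed to 10000 to 13100 CPM over the 4 groups, with 1 of 10 (Lum) at or under the floor throughout. Fn1, Col1a1 and Vim made up most of the sum (5700, 2830 and 1280 CPM in WT normoxia). Thy1 had at most 8 counts in a library and was not tested, and Col1a2 stood at only 5.33 CPM in WT normoxia. Of the 8 markers tested, 5 were higher and 2 lower in TAZKo normoxia: Col1a1 stood at 2830 CPM in WT and 1150 CPM in TAZKo, and Pdgfrb at 49.6 and 104 CPM. Of the lists for other cells, the sum of 6 endothelial markers was lower in the libraries labelled TAZKo (5.89 to 7.88 CPM in normoxia and 4.28 to 5.5 in hypoxia) than in those labelled WT (18.2 to 21.2 and 14.6 to 20.6 CPM). The sum rests mainly on Tek (16 and 4.91 CPM in WT and TAZKo normoxia) and Kdr (3.15 and 0.998 CPM), whereas Pecam1 was higher in TAZKo normoxia (0.227 and 0.577 CPM). The mean of Vwf was also higher in TAZKo hypoxia (0.389 CPM) than in WT hypoxia (0.0997 CPM). The defining endothelial markers Cdh5 and Cldn5 were at or under the floor in every group. The sum of 7 epithelial markers was also lower in the libraries labelled TAZKo, at 196 to 211 against 345 to 431 CPM in normoxia and 255 to 258 against 315 to 345 CPM in hypoxia. Nearly all of it was Krt14 (244 and 104 CPM in WT and TAZKo normoxia) and Krt18 (132 and 99.8 CPM). In hypoxia Krt14 stood at 200 and 133 CPM and Krt18 at 126 and 123 CPM, and 1 of 3 tested markers was called lower. Cldn4 was at or under the floor in every group, and Epcam in the TAZKo groups. Skeletal muscle markers (6) summed higher in the libraries labelled TAZKo, at 9.66 to 10.8 against 4.26 to 5.44 CPM in normoxia, with Myod1, Myog and Myf5 at or under the floor. The part of these markers in the genotype differences below was not tested, and in such bulk libraries fewer cells of a type cannot be told apart from less RNA per cell.

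Peg3 and Usp29 are shown with their sequence because the largest genotype difference of the 10 genes lay at the point where these genes meet. In GRCm38, the build the mouse annotation used here refers to, Peg3 runs leftward from 6730431 to 6703892 on chromosome 7 and Usp29 runs rightward from 6730578 to 6967219, so the genes face away from each other across a gap of 146 bases. Zim1 lies beside Peg3, from 6671269 to 6696450 on the same strand. The gap, chr7:6730432-6730577 on the plus strand (GRCm38.p6, RefSeq), is printed 5′ to 3′ with its 5 CpG dinucleotides, the sites at which DNA can be methylated, in capitals.

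Peg3-Usp29 gap: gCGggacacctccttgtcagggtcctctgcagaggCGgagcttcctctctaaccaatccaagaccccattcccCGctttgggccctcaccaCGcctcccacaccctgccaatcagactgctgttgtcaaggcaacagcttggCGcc

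The 300-base promoter windows of RefSeq (250 bases before to 50 after a start) gave 13 CpG dinucleotides for Peg3 and 17 for Usp29, against a median of 7 over 32851 such windows. Of all windows, 37.9% held at least as many as that of Peg3. The hypoxia-response core ACGTG, searched on both strands, was not found in the windows of Peg3 or Usp29, and the related GCGTG was found once in each. The windows share 263 of their 300 bases, so their CpG counts are largely the same sites, and the 1 GCGTG lies in the gap inside both. The words ACGTG and GCGTG occur in 19.6% and 32.4% of all windows, so a match or its lack is a description of the letters and not of a factor's binding. Windows were found for 8 of the 10 members, all but H19 and Cdkn1c. One of the windows of Grb10 (chr11:12037371-12037670) held 45 CpG dinucleotides, a number reached by 1.93% of all windows.

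Peg3 was expressed in the libraries labelled WT and nearly absent from those labelled TAZKo, in normoxia and in hypoxia alike. It encodes a large zinc finger protein that binds DNA and is studied for its effects on growth, maternal care and cell death. Peg3 (ENSMUSG00000002265) had 311, 365 and 475 counts in WT normoxia, and 3, 0 and 6 counts in TAZKo normoxia. In hypoxia it had 318, 423 and 600 counts in WT and 4, 3 and 3 counts in TAZKo. No library labelled TAZKo came near the lowest one labelled WT, and all 6 were within a few counts of the floor.

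On the CPM scale, normoxic Peg3 stood at 15.7 ± 1.75 (SD, n = 3) for WT against 0.104 ± 0.0947 for TAZKo, and hypoxic Peg3 at 18.9 ± 2.96 against 0.134 ± 0.0521. The fitted log2 difference, TAZKo minus WT, was -7.05 (SE 0.293) in normoxia and -7.16 (SE 0.284) in hypoxia. The summed counts, 1151 against 9 in normoxia and 1341 against 10 in hypoxia, gave ratios of 139 (95% counting interval 72.8 to 304) and 150 (81.5 to 314) after scaling for depth. With so few reads in TAZKo the size of the difference is known only within such intervals. Without TAZKo normoxia library 3, which held 6 of the 9 reads, the normoxia difference was -7.86. The longest annotated transcript of Peg3 shared none of its 8626 words of 50 bases with transcripts of other annotated genes. Peg3 has 13324 bases of exon in all, and those outside that transcript were not searched.

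Usp29, which encodes a ubiquitin-specific protease and starts just across the gap from Peg3, had the same order of groups at a far lower level. Usp29 (ENSMUSG00000051527) had 7, 10 and 16 counts in WT normoxia and 14, 9 and 12 counts in WT hypoxia. It had 0 counts in all 6 libraries labelled TAZKo. Every WT library was thus above every TAZKo library, on 33 and 35 reads in all in the WT groups. WT levels were 0.443 ± 0.135 CPM (SD, n = 3) in normoxia and 0.514 ± 0.163 in hypoxia. Taking 3 counts per library as the floor for TAZKo, Usp29 was at least 3.8-fold higher in WT in normoxia and at least 4.35-fold higher in hypoxia. Zim3, an antisense gene that overlaps 14.3% of the exon length of Usp29 (2582 bases), had 0 counts in all 12 libraries. The overlap is 68.8% of the exon length of Zim3, and how the counting treated reads there is not known. The 0 counts of Zim3 are thus not informative for that stretch. The longest annotated transcript of Usp29 shares 33.8% of its 50-base words (2533) with transcripts of other annotated genes, so its few counts are uncertain. Both strands were searched, so words of the stretch shared with Zim3 are among these.

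Zim1, a maternally expressed zinc finger gene beside Peg3, had a single count in TAZKo normoxia library 3 and in WT hypoxia library 3, and 0 counts in the other libraries. It was below the floor in every library, so no genotype difference was detectable at this depth. Zfp264, another imprinted gene of the domain, had 1 count in 1 library.

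**Figure D1:**
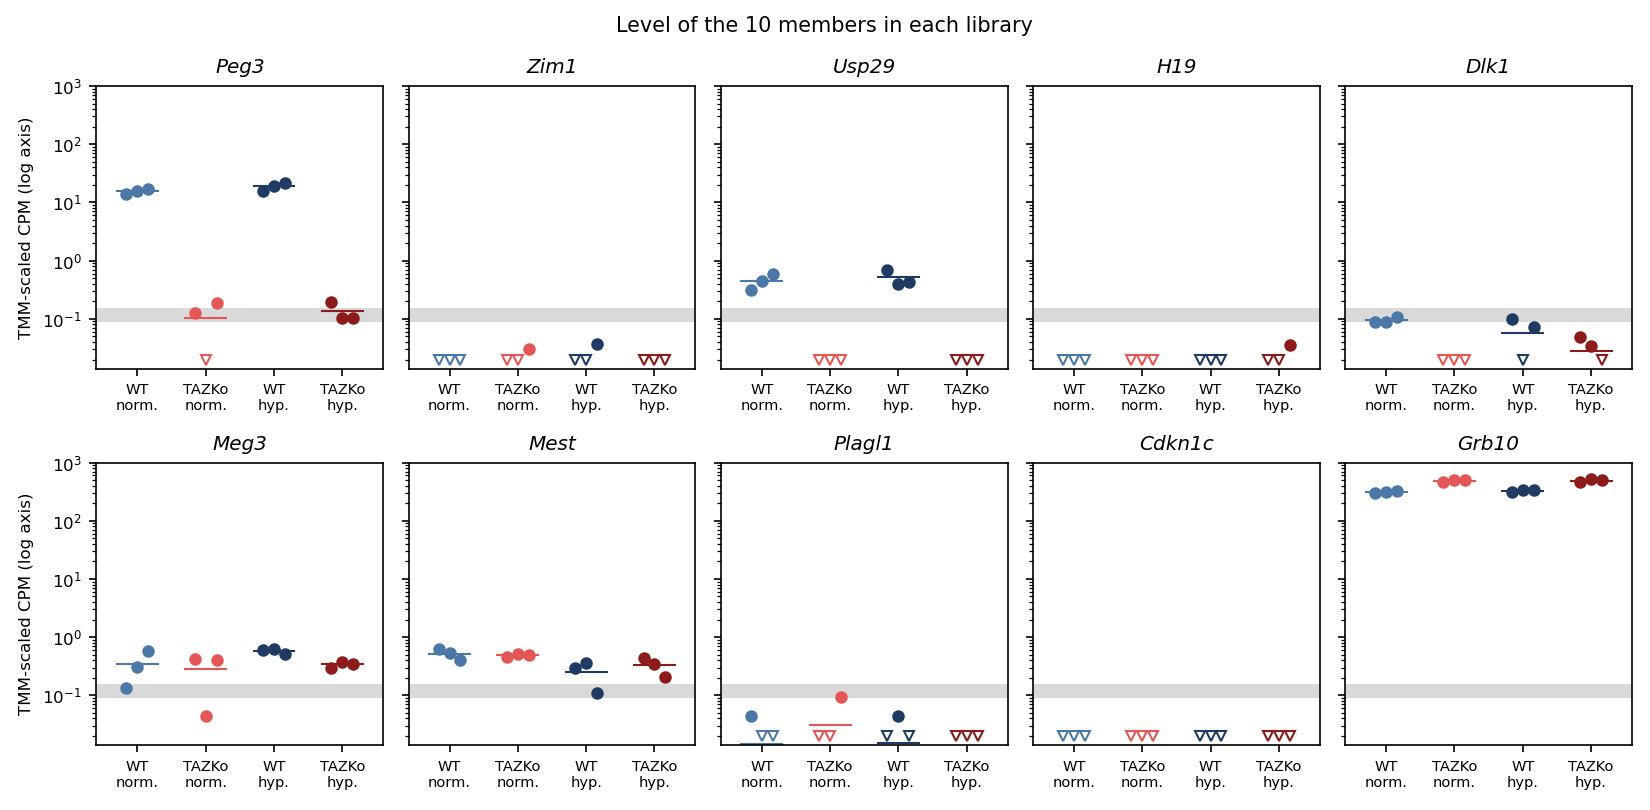
Levels of the 10 imprinted genes in each of the 12 libraries, in TMM-scaled CPM on a log axis, with 3 libraries per group (norm., normoxia; hyp., hypoxia). Points are libraries, lines are group means, open triangles are libraries with 0 counts and the grey band is the range of the 3-count floor (0.0927 to 0.15 CPM). Peg3 and Usp29 lie above the band in every WT library, Peg3 reaches at most 0.194 CPM and Usp29 has 0 counts in TAZKo, Grb10 lies between 298 and 514 CPM, and Zim1, H19, Dlk1, Plagl1 and Cdkn1c never rise above it.

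The genes on either side of the Peg3 domain did not share this loss. The domain was chosen for its genotype difference, but the 5 tested genes nearest on each side that are not listed as imprinted are no members, and they were tested. Of these 10 genes, mostly zinc finger genes, 2 were higher and 0 lower in TAZKo normoxia, with log2 differences from -0.23 to 1.16 and a median of 0.16. The edgeR quasi-likelihood test with Benjamini-Hochberg (BH) adjustment over all genes called 30.4% of the 14408 genes in this comparison, 15.6% higher and 14.9% lower. The 2 genes were Zfp28 (0.46, SE 0.119, edgeR BH-adjusted p = 0.0104) and Zfp773 (1.16, SE 0.311, edgeR BH-adjusted p = 0.0118). In hypoxia 0 of the 10 were higher and 1 was lower, Zfp667 (-0.77, SE 0.114, edgeR BH-adjusted p = 0.000186), with a median of -0.14, where 32.8% of all genes were called. The nearest tested gene with a higher coordinate, Zfp954, begins 147 kb beyond the domain and differed by 0.08 (SE 0.0927) in normoxia.

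**Figure D2:**
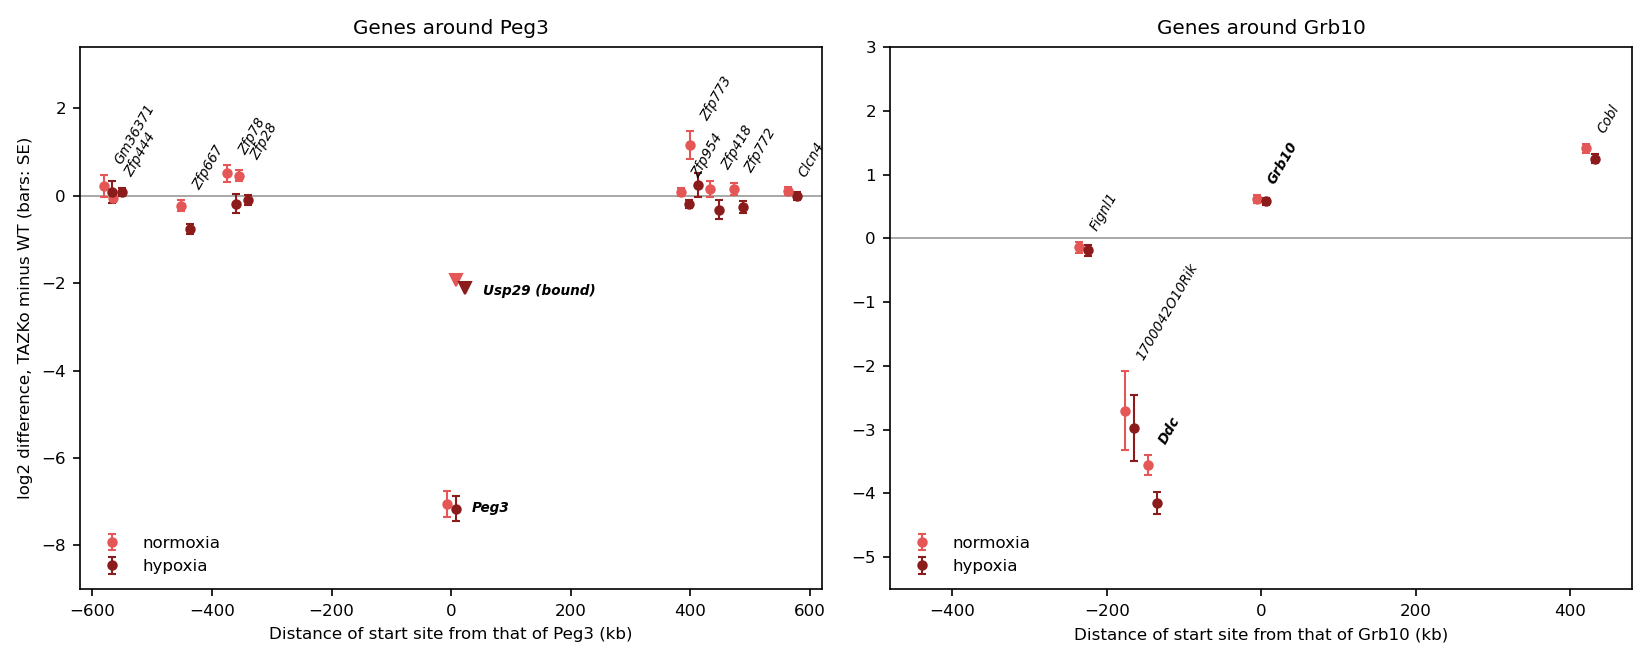
Genotype differences (log2, TAZKo minus WT, bars are SE) of tested genes around Peg3 and around Grb10, against the distance of their start sites in kb. Light points are normoxia and dark points hypoxia. Triangles mark upper limits for Usp29 (-1.93 and -2.12), which had 0 counts in TAZKo. Genes listed here as imprinted are in bold. Peg3 lies at -7.05 and -7.16 between neighbours from -0.77 to 1.16, and Ddc lies at -3.55 and -4.15 beside Grb10 at 0.62 and 0.58.

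Grb10 was by far the most abundant of the 10 genes and ran the opposite way, higher in every library labelled TAZKo. Its protein is an adaptor that binds the insulin and insulin-like growth factor receptors and restrains their signal, and it is known as a brake on fetal growth. Grb10 (ENSMUSG00000020176, chromosome 11 from 11930508 to 12038683 on the minus strand) stood at 298, 317 and 329 CPM in WT normoxia and at 464, 492 and 499 CPM in TAZKo normoxia. In hypoxia it stood at 317, 333 and 335 CPM in WT and at 463, 514 and 493 CPM in TAZKo. The groups did not overlap in either condition.

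The difference in Grb10 was 0.62 on the log2 scale (SE 0.0595, 1.54-fold) in normoxia and 0.58 (SE 0.0595, 1.49-fold) in hypoxia. Over the 19 alternative analyses of each condition it stayed between 0.54 and 0.63. Together, the groups at Peg3, Usp29 and Grb10 did not overlap in either condition. Among the other members, the genotypes also lay apart for Dlk1 in normoxia, at or under the floor, and for Meg3 in hypoxia. How often groups fail to overlap over all genes was not computed. The 30.4% and 32.8% of all genes called in the same fit are another measure. Since the members were chosen on this contrast, nothing is read from the lack of overlap. Per exon length Grb10 reached 34.6 ± 1.74 RPKM, CPM per kilobase of exon (SD, n = 3), in WT normoxia, at percentile 89 of the tested genes, and 53.4 ± 2.02 RPKM in TAZKo normoxia, at percentile 94.4.

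Ddc, the imprinted neighbour of Grb10 that encodes the decarboxylase making dopamine and serotonin, moved against it. Ddc had 309, 299 and 402 counts in WT normoxia and 21, 31 and 41 counts in TAZKo normoxia. In hypoxia it had 322, 363 and 338 counts in WT and 15, 23 and 27 counts in TAZKo. It was lower in TAZKo by a log2 difference of -3.55 (SE 0.159, edgeR BH-adjusted p = 3.18e-09) in normoxia and -4.15 (SE 0.169, edgeR BH-adjusted p = 1.11e-09) in hypoxia, with no overlap of the groups. A noncoding gene inside Ddc on the opposite strand, 1700042O10Rik, was lower too (-2.7 and -2.97), and without strand its reads cannot be told apart from unspliced Ddc RNA. It was at 0.353 ± 0.0444 CPM in WT and 0.0487 ± 0.0436 CPM in TAZKo normoxia. On the other side Cobl, which encodes a protein that nucleates actin filaments, was higher (1.41, SE 0.0665, edgeR BH-adjusted p = 4.9e-09 in normoxia; 1.25, SE 0.0668, edgeR BH-adjusted p = 1.6e-08 in hypoxia). It went from 64 ± 2.12 CPM in WT to 171 ± 6.57 CPM in TAZKo normoxia. Of the 10 tested neighbours of Grb10, 2 were higher and 1 lower in each condition, a share of 30% beside the 30.4% and 32.8% of all genes. Of these neighbours 7 lie 2790 to 4600 kb from Grb10. Neighbours are tested genes outside the list of imprinted genes used here, and whether they are imprinted was not examined.

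Meg3 and Dlk1 lie in one imprinted domain on chromosome 12, where Dlk1 encodes a membrane protein related to Notch ligands and Meg3 a long noncoding RNA. Meg3 (ENSMUSG00000021268, 109541001 to 109571726) had 3, 7 and 16 counts for WT and 10, 1 and 13 for TAZKo in normoxia. After hypoxia the counts were 12, 14 and 14 for WT and 6, 11 and 10 for TAZKo. The genotypes overlapped in normoxia (log2 difference -0.23, SE 0.543), where libraries of one group differed more than the groups did. In hypoxia all 3 TAZKo libraries (0.292 to 0.381 CPM) lay below all 3 WT libraries (0.509 to 0.628 CPM), a difference of -0.73 (SE 0.486) on 27 and 40 reads. Dlk1 (ENSMUSG00000040856, 109452823 to 109463336) had 2, 2 and 3 counts in WT normoxia and 0 in TAZKo normoxia, then, after hypoxia, 2, 0 and 2 for WT and 1, 1 and 0 for TAZKo. All of these are at or under the floor, so Dlk1 was not detectable at this depth. Mirg, the host transcript of microRNAs at the far end of the domain, was higher in TAZKo hypoxia than in WT hypoxia (1.55, SE 0.328, edgeR BH-adjusted p = 0.00261), at 14, 17 and 19 counts against 7, 3 and 5.

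Mest, a paternally expressed gene for a protein of the alpha/beta hydrolase fold, was low and did not separate the genotypes. Mest (ENSMUSG00000051855, chromosome 6 from 30723547 to 30748465) had 14, 12 and 11 counts for WT and 11, 12 and 16 for TAZKo in normoxia. After hypoxia the counts were 6, 8 and 3 for WT and 9, 10 and 6 for TAZKo. The genotype difference was -0.05 (SE 0.336) in normoxia and 0.38 (SE 0.432) in hypoxia, with overlapping groups both times.

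H19, Plagl1 and Cdkn1c were not detectable at this depth. H19, the noncoding RNA transcribed beside Igf2 on chromosome 7 (142575529 to 142578143), had 1 count in TAZKo hypoxia library 3 and 0 counts elsewhere. Plagl1, a zinc finger transcription factor of chromosome 10 (13060504 to 13131694), had at most 3 counts in a library. Cdkn1c, the cyclin-dependent kinase inhibitor p57 of chromosome 7 (143458339 to 143461050), had 0 counts in all 12 libraries. For a count of 0 the floor allows up to 0.0927 to 0.15 CPM, depending on the library. Of the 10 members, 1 (Grb10) was above the floor in all 12 libraries, 4 in some and 5 in none; among 63 other imprinted genes these numbers were 32, 11 and 20.

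Ranked per exon length in WT normoxia, Grb10 (34.6 RPKM) was followed by Peg3 (1.18 ± 0.131 RPKM, SD, n = 3) at percentile 25.4 of the tested genes and by Mest (0.13 ± 0.0281 RPKM). Below these came Usp29 (0.0245 ± 0.00747 RPKM), Meg3 (0.0188 ± 0.0124) and Dlk1 (0.0168 ± 0.0021), which did not differ beyond their spread. In TAZKo normoxia Mest (0.125 ± 0.00727 RPKM) held the place after Grb10, ahead of Meg3 (0.016 ± 0.0118) and Peg3 (0.0078 ± 0.00711).

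Of the 5 members tested, 1 (Mest) was called with hypoxia in WT, where 51% of all tested genes were called. In TAZKo 0 were called by edgeR or DESeq2, and 0 had an unadjusted p under 0.05, where 43.8% of all genes were called. The WT value of Peg3 was 0.27 on the log2 scale (95% interval -0.01 to 0.56, SE 0.145, edgeR BH-adjusted p = 0.131), and 0.19 without WT normoxia library 1. In TAZKo, on 9 and 10 reads, it was 0.17 (interval -1.28 to 1.62). Grb10 was at 0.06 in WT (interval -0.06 to 0.18, edgeR BH-adjusted p = 0.417). In TAZKo it was at 0.01 (interval -0.1 to 0.13, edgeR BH-adjusted p = 0.866), a value whose sign turned in 12 of 19 alternatives. For Usp29 the WT value was 0.16 (SE 0.364, edgeR BH-adjusted p = 0.742), and no comparison can be made in TAZKo, where all counts were 0. Meg3 was at 0.69 in WT (interval -0.27 to 1.65, edgeR BH-adjusted p = 0.258) and at 0.19 in TAZKo (interval -0.86 to 1.25). Its few counts leave a wide range of sizes possible. These comparisons share their libraries with the genotype comparisons.

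Mest fell in WT, from a level of 0.515 ± 0.111 CPM (SD, n = 3) to one of 0.256 ± 0.131. The log2 value was -1.04 (SE 0.399, edgeR BH-adjusted p = 0.0433), and all 3 hypoxia libraries lay below all 3 normoxia libraries. In TAZKo the groups did not overlap either, but the change of -0.61 (SE 0.363) missed the threshold (edgeR BH-adjusted p = 0.196). Mest shares 912 bases of exon, 23.1% of its exon length, with Copg2 on the opposite strand. The library kit does not mark strand, so reads there cannot be assigned to one of them. Copg2, a coat protein gene, fell as well, with log2 values of -0.52 in WT and -0.69 in TAZKo (edgeR BH-adjusted p = 2.53e-05 and 2.68e-06). The WT fall of Mest is not firm: the call was lost in 5 of 18 alternatives, among them without WT normoxia library 1 (-0.89, edgeR BH-adjusted p = 0.116), without WT normoxia library 2 (-1.07, edgeR BH-adjusted p = 0.0713), without WT hypoxia library 3 (-0.67, edgeR BH-adjusted p = 0.21), with lane as a covariate (-0.92, edgeR BH-adjusted p = 0.075) and with DESeq2 (-1.06, DESeq2 BH-adjusted p = 0.0957).

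Whether the hypoxia change differed between genotypes was tested as an interaction, in which edgeR called 0 of the members and 0 had an unadjusted p under 0.05. The interaction was -0.11 for Peg3 (SE 0.838, edgeR BH-adjusted p = 0.968), -0.05 for Grb10 (SE 0.0838, 95% interval -0.21 to 0.12, edgeR BH-adjusted p = 0.837), 0.43 for Mest (SE 0.546, edgeR BH-adjusted p = 0.752) and -0.5 for Meg3 (SE 0.734, edgeR BH-adjusted p = 0.79). Over all genes 2.43% were called, 0.722% higher and 1.71% lower. DESeq2 and the other alternatives also called 0 of the members. For Peg3, Mest and Meg3 the intervals are too wide to say that the hypoxia changes were alike.

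**Figure D3:**
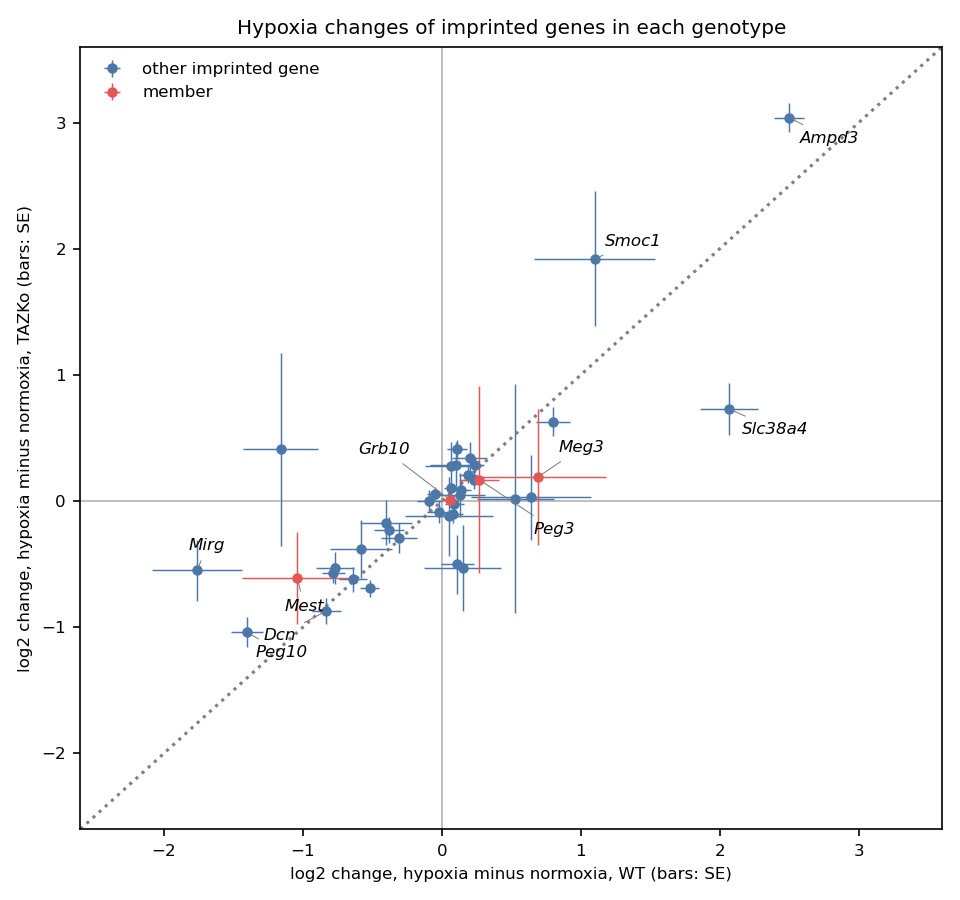
Hypoxia changes (log2, hypoxia minus normoxia) in WT on the horizontal axis and in TAZKo on the vertical axis for the imprinted genes that passed the filter, members in red and other imprinted genes in blue. Bars are SE, the dotted line marks equal change, and Usp29 is left out because it had 0 counts in TAZKo. Grb10 sits near 0 on both axes (0.06 and 0.01), Mest lies at -1.04 and -0.61, and Slc38a4 (2.07 and 0.73) lies farthest below the line.

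Other imprinted genes differed between the genotypes in both directions. Of a list of 63, 36 were tested, and whether each is imprinted in MEFs was not examined. In normoxia 6 were higher and 8 lower in TAZKo, with a median of -0.04 against 0.01 for all genes. These 14 are 38.9% of the 36, against 30.4% of all genes. In hypoxia 6 were higher and 10 lower, with a median of 0.02 against -0.01, or 44.4% called against 32.8%.

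Peg10, Ppp1r9a, Snrpn and Ddc had the lowest values. Peg10, a retrotransposon-derived gene needed in the placenta, went from 559 ± 81.6 to 134 ± 15.1 CPM (SD, n = 3) in normoxia (-2.06, SE 0.12, edgeR BH-adjusted p = 3.17e-08) and from 211 ± 22.6 to 65.3 ± 5.77 CPM in hypoxia (-1.69, SE 0.12, edgeR BH-adjusted p = 2.45e-07). Its neighbour Sgce, which encodes a sarcoglycan, was at 38.9 ± 2.73 and 35.1 ± 1.83 CPM in normoxia (-0.15, edgeR BH-adjusted p = 0.129). Ppp1r9a of the same cluster, a gene for an actin-binding protein, had 35, 43 and 76 counts in WT and 1, 4 and 1 in TAZKo normoxia, a count ratio of 27.8 (95% counting interval 12.5 to 77). In hypoxia its ratio was 9.11 (4.36 to 22), and both differences were called (edgeR BH-adjusted p = 2.02e-06 and 0.000176). Snrpn, which encodes a small nuclear ribonucleoprotein, had 19, 12 and 28 counts in WT and 1, 1 and 2 in TAZKo normoxia, a ratio of 16 (5.93 to 60.7), and was called lower in both conditions (edgeR BH-adjusted p = 6.63e-05 and 1.25e-05). Its longest annotated transcript shares 26.2% of its 50-base words with other annotated genes such as Snurf, so its count is uncertain.

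**Figure D4:**
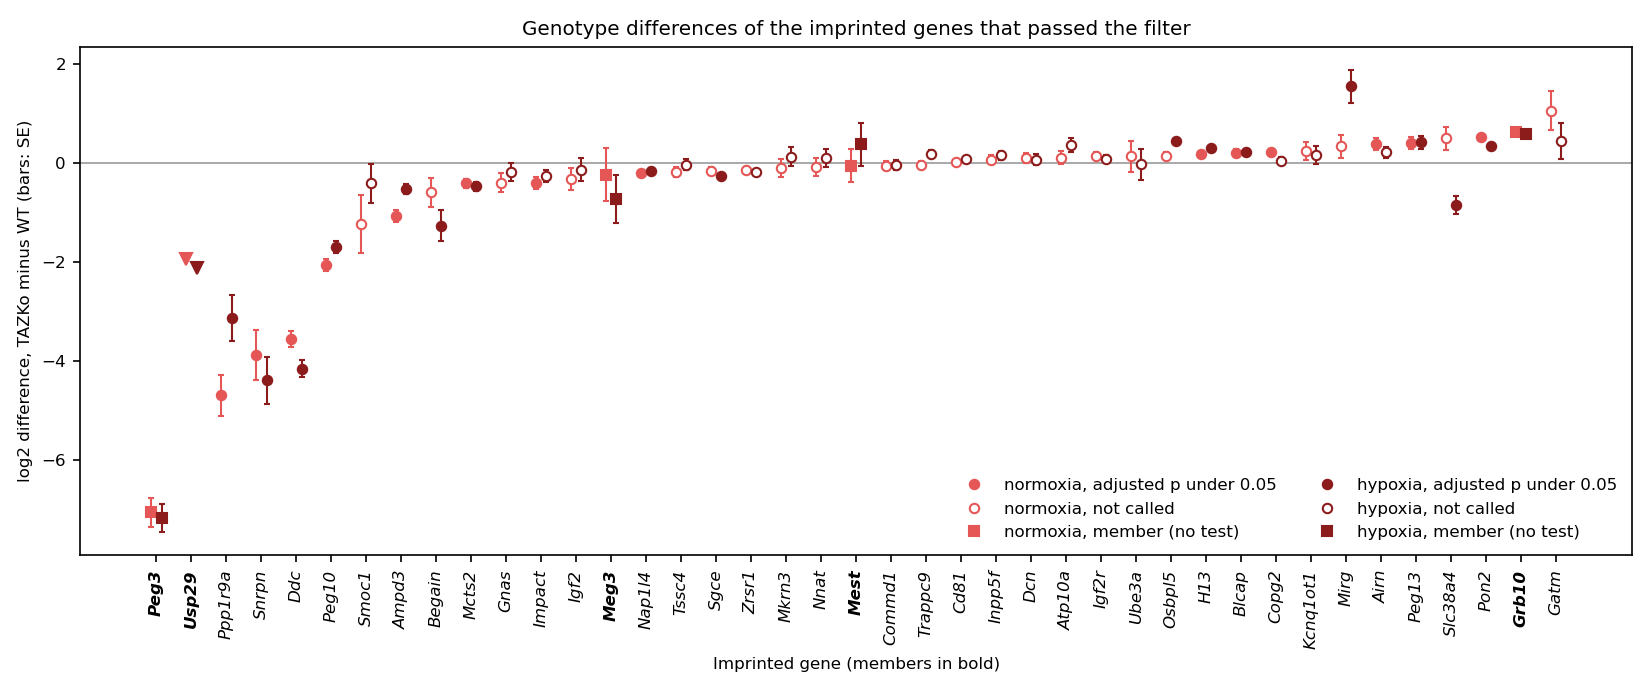
Genotype differences (log2, TAZKo minus WT, bars are SE) of the 41 imprinted genes that passed the filter, in normoxia (light) and hypoxia (dark), ordered by the normoxia value. Circles are other imprinted genes, filled where the edgeR BH-adjusted p was under 0.05, squares are members, shown without a test, and triangles are the upper limits of Usp29. Peg3 lies lowest, Grb10 (0.62 and 0.58) lies near the upper end, and most genes lie close to 0.

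Among the same 36 genes hypoxia raised 7 and lowered 10 in WT, against 26% and 25% of all genes, and raised 8 and lowered 6 in TAZKo, against 22.2% and 21.6%. Ampd3, which encodes AMP deaminase, rose by 2.5 in WT and 3.04 in TAZKo (edgeR BH-adjusted p = 5.84e-10 and 1.84e-10), from 19.7 ± 0.747 to 111 ± 17.2 CPM in WT. Peg10 fell by 1.4 and 1.04 on the log2 scale (edgeR BH-adjusted p = 3.95e-07 and 1.19e-05). Mirg fell in WT (-1.76, edgeR BH-adjusted p = 0.000465) and was at -0.55 in TAZKo (edgeR BH-adjusted p = 0.0791). The hypoxia change differed between genotypes in 1 of the 36, Slc38a4, an amino acid transporter (-1.34, SE 0.296, edgeR BH-adjusted p = 0.0305).

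Grb10, Plagl1 and H19 act in or beside insulin-like growth factor (IGF) signalling. A list of growth pathway genes was examined, which also holds genes outside IGF signalling, such as Notch1, Siah1a, Traf2 and Trp53. Of its 24 genes, 23 were tested. In TAZKo normoxia 5 were higher and 5 lower (43.5% of the list, against 30.4% of all genes). In hypoxia 4 were higher and 4 lower (34.8%, against 32.8%). Igf1, the ligand, had 10, 14 and 15 counts in WT and 66, 77 and 107 in TAZKo normoxia, a log2 value of 2.55 (SE 0.198, edgeR BH-adjusted p = 5.62e-07), and of 1.92 in hypoxia (SE 0.208, edgeR BH-adjusted p = 1.25e-05). It lies on chromosome 10, where the median of all tested genes was itself higher by 0.31 in normoxia and 0.29 in hypoxia. Irs1, an adaptor of the receptor, was higher by 0.77 and 0.58 (edgeR BH-adjusted p = 1.94e-05 and 0.000184). Lin28b, an RNA-binding protein of fetal cells, had 15, 37 and 36 counts in WT normoxia and 13, 17 and 23 in WT hypoxia, and 0 counts in all 6 libraries labelled TAZKo. The fetal ligand Igf2 had a low count everywhere, at 1.43 ± 0.145 CPM in WT and 1.12 ± 0.256 in TAZKo normoxia (-0.32, edgeR BH-adjusted p = 0.278). Its longest annotated transcript shares 75.9% of its 50-base words with transcripts of other annotated genes. Gm49394 overlaps 62.8% of the exon length of Igf2 on the same strand. How the counting divided reads there is not known, so the level of Igf2 is uncertain.

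With hypoxia 11 of the 23 growth pathway genes rose and 2 fell in WT, where 26% of all genes rose and 25% fell. In TAZKo 8 rose and 1 fell, against 22.2% and 21.6% of all genes. One of the 2 that fell in WT, Igf2 (-0.58, edgeR BH-adjusted p = 0.0453), missed the threshold with the replicate block (edgeR BH-adjusted p = 0.0565). Cdkn1a, a cell cycle inhibitor of the same family as Cdkn1c, rose by 3.59 in WT (18 ± 1.8 to 216 ± 26.2 CPM) and by 2.41 in TAZKo (28.5 ± 1.94 to 152 ± 10 CPM), and the difference between these rises was called (-1.17, SE 0.136, edgeR BH-adjusted p = 0.000601). The IGF receptor Igf1r rose by 0.68 and 0.65 (edgeR BH-adjusted p = 4.87e-06 and 1.08e-05).

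Genes that set or keep imprints showed small differences between genotypes. Of 24 such genes, 20 were tested. In TAZKo normoxia 1 was higher and 4 were lower, none by more than 0.38 on the log2 scale: Ehmt2 (-0.38), Dnmt3a (-0.3), Trim28 (-0.3), Dnmt3b (-0.2) and Zfp445 (0.25). They are 25% of the 20, against 30.4% of all genes. The call of Zfp445 (edgeR BH-adjusted p = 0.0394), the 1 gene called higher, was lost in 14 of 19 alternatives, and that of Dnmt3b in 7 of 19. In hypoxia 0 were higher and 4 lower (20% of the list, against 32.8% of all genes), the largest difference being that of the methyltransferase Ezh2 (-0.52, SE 0.0825, edgeR BH-adjusted p = 0.000323). Zfp57, which holds methylation at imprints, had 1353, 1474 and 1833 counts in WT normoxia and 1379, 1190 and 1819 in TAZKo normoxia. Its difference there was -0.2 (edgeR BH-adjusted p = 0.0528), on the other side of the threshold in 13 of 19 alternatives, the replicate block (edgeR BH-adjusted p = 0.0352) among them. With hypoxia, Dnmt3b, a DNA methyltransferase, fell in both genotypes (-1.1 and -1.18), and Tet2, a dioxygenase that acts on methylated DNA, rose in both (1.11 and 0.72). Methylation itself was not measured here.

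The non-member gene most like each tested member in log2 CPM over the 12 libraries was found by Pearson's r, as a description in which all 12 points share the group differences. It was Cd34, a surface sialomucin, for Peg3 (r = 0.994), at 52.3 ± 2.17 CPM in WT normoxia and 0.846 ± 0.159 in TAZKo normoxia, and at 55.1 ± 7.65 and 1.15 ± 0.327 CPM in hypoxia. For Usp29 it was Adgrl2, an adhesion receptor (r = 0.99), for Grb10 Myo10, an unconventional myosin (r = 0.985), for Mest the gene Gm8146 (r = 0.913) and for Meg3 the gene Gm42141 (r = 0.868). Myo10 stood at 205 ± 3.35 CPM in WT and 285 ± 10.4 CPM in TAZKo normoxia.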

How the data were processed

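The authors deposited 1 table per library with read counts per Ensembl gene, with no normalization recorded. Libraries were made with a TruSeq RNA version 2 kit, per the labels' protocols, which does not mark strand. The genome build was mm10, per the submitters' processing notes; the aligner, the counting program and the annotation release are not given in the sources used here. IDs were matched to GENCODE M21 on GRCm38 for symbols, positions and exon lengths (48349 matched, 360 did not).

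Genes were filtered with filterByExpr by group, scaled by TMM and fitted with the edgeR 4.0.16 quasi-likelihood test (R 4.3.3, limma 3.58.1) over all 12 libraries with 1 coefficient per group. P-values were adjusted by Benjamini-Hochberg over 14408 genes, with a threshold of 0.05. The biological coefficient of variation was 8.62%. Of genes simulated with a log2 change of 1, the fit recovered 88% in the normoxia genotype contrast and 85% in the WT hypoxia contrast. It recovered 83% in the TAZKo hypoxia contrast and 74% in the interaction. These genes were drawn at random from all tested genes, so the rates do not describe members with few counts such as Meg3, Mest and Usp29. CPM and RPKM were computed from the counts with the TMM scaling; log2 CPM for likeness used a prior count of 2. Counting intervals are exact conditional binomial intervals at the 95% level.

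Groups came from the titles. The members and the gene lists (other imprinted genes, imprint maintenance genes, growth pathway genes, markers of fibroblasts and 7 other cell types) were chosen with earlier results of these data known. Genes named in the text are the members, genes of these lists, the 5 nearest tested neighbours on each side of a member's locus, the 1 gene most like each member, and Taz. The alternatives tried were the size factors and the Wald test of DESeq2 1.42.0, scaling by library size alone, no filter, a replicate block, sequencing lane (from the tables' names) as a covariate, only the 6 libraries compared, and leaving out each library. Libraries of different groups share numbers, and the labels do not say what a number marks. Correlations of deviations from the group means ran from -0.09 to 0.37 over 18 same-numbered pairs and from -0.29 to 0.18 over 36 others. Same-numbered pairs between WT normoxia and TAZKo normoxia ran from 0.15 to 0.35. Those between WT normoxia and WT hypoxia ran from 0.15 to 0.37. Pairs between the other groups were not all over 0.1, so the numbers may pair libraries in the 2 comparisons just named. Of pairs with different numbers, WT normoxia library 3 and WT hypoxia library 2 reached 0.18. Libraries numbered 1 were all on lane 4 and those numbered 3 all on lane 5, so number and lane cannot be fully told apart.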

Additional observations from a re-analysis of the deposited data

Results flagged for a closer look

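The difference between the hypoxia changes of the genotypes was tested as an interaction in edgeR over all genes, of which 2.43% were called. It was called for 4 of 144 genes, which are the tested members, neighbours and listed genes without the cell type markers. Among the marker lists, 1 of 3 tested epithelial markers was called too (higher), and it was not followed through the alternatives. Cdkn1a rose less in TAZKo (-1.17, SE 0.136, edgeR BH-adjusted p = 0.000601) and kept its call in all 18 alternatives. Podxl, a sialomucin gene near Mest, fell by 1.58 in WT and by 0.58 in TAZKo on the log2 scale, an interaction of 1 (SE 0.17, edgeR BH-adjusted p = 0.00684). Its mean level was 439 CPM in WT normoxia, 147 in WT hypoxia, 150 in TAZKo normoxia and 101 in TAZKo hypoxia. Slc38a4 rose more in WT than in TAZKo (-1.34, SE 0.296, edgeR BH-adjusted p = 0.0305), with 33, 48 and 38 counts in WT normoxia, 117, 171 and 196 in WT hypoxia, 56, 70 and 54 in TAZKo normoxia and 82, 101 and 116 in TAZKo hypoxia. Its call was lost in 8 of 18 alternatives, each leaving out 1 library, with adjusted p up to 0.104. Lsp1, near H19, had an interaction of -0.44 (SE 0.103, edgeR BH-adjusted p = 0.0425), and lost its call in 13 of 18 alternatives, with adjusted p up to 0.144. None of these genes is one of the 10 members, and all 4 differences were tested directly.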

How the results depend on the processing

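Across 13438 values of 144 genes under the alternatives, 12689 stayed on their side of the threshold, of which 577 were uncalled values whose sign turned and 12112 kept their sign, 415 lost a call, 333 gained one and 1 reversed: Mkln1, a neighbour of Mest, was at -0.13 with hypoxia in WT (edgeR BH-adjusted p = 0.0377) without WT normoxia library 1, against 0.01 with all libraries and -0.13 to 0.03 when each library was left out. The genotype differences of Peg3 and Grb10 kept their direction in all alternatives. The 1 member called with hypoxia in WT, Mest, became 0 with lane as a covariate, with only the 6 libraries compared (which gave no value for Mest) and with DESeq2, and 0 to 1 when a library was left out. Other imprinted genes called by genotype in normoxia numbered 14, 9 with only the 6 libraries compared, and 8 to 14 when a library was left out. Their interaction count of 1 became 3 without a filter, 2 with DESeq2, and 0 to 2 when a library was left out; that of the neighbours, 2, became 1 with size factors, library size alone or no filter, and 1 to 4 when a library was left out. Over all genes the interaction count of 350 became 727 without a filter, 574 with DESeq2, 639 with the replicate block, and 174 (without TAZKo normoxia library 2) to 711 (without WT hypoxia library 1). The replicate block gave 5212, 5518, 8032 and 7010 called genes for genotype in normoxia and hypoxia and for hypoxia in WT and TAZKo, against 4384, 4723, 7355 and 6309. In the comparisons where every same-numbered pair correlated, it gained 5 and lost 0 calls among the examined genes (genotype in normoxia) and gained 7 and lost 1 (hypoxia in WT). Leaving out a library gave 3349 to 4961, 3765 to 6149, 6510 to 7679 and 5367 to 7678. Library size alone moved the median hypoxia change to -0.097 in WT and -0.103 in TAZKo, and the share of calls that were higher to 38.1% and 36%. The cause of these shifts was not tested. Depth limits Zim1, H19, Dlk1, Plagl1 and Cdkn1c, which lie at or under the floor of 3 counts, and the size of every difference of Meg3, Mest and Usp29.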

Other observations

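Genes around the members also included some that changed with hypoxia. Of the 10 tested neighbours of H19, 7 rose and 0 fell in WT with hypoxia, and 5 rose and 0 fell in TAZKo, beside 51% and 43.8% of all genes called in either direction. By direction, 26% of all genes rose and 25% fell in WT, and 22.2% rose and 21.6% fell in TAZKo. The neighbours of H19 reach 1090 kb from it, and 8 of them are also neighbours of Cdkn1c. They lie outside the list of imprinted genes used here, and whether they are imprinted was not examined. Syt8, which encodes a synaptotagmin, rose from 0.205 ± 0.0253 to 2.11 ± 0.194 CPM (SD, n = 3) in WT (log2 value 3.32, SE 0.287, edgeR BH-adjusted p = 5.55e-07). Tnfrsf23, a decoy death receptor gene 205 kb from Cdkn1c, rose by 2.46 in WT and 2.48 in TAZKo. Its paralog Tnfrsf22 was lower in TAZKo than in WT in normoxia and hypoxia (-2.89 and -3.28, edgeR BH-adjusted p = 0.0042 and 9.42e-06), on mean levels of 0.224 and 0.0243 CPM in normoxia and 1.16 and 0.113 CPM in hypoxia; how the counting divided reads shared by such paralogs is not known. Around Mest, 0 of 10 neighbours rose and 5 fell in WT, and 0 rose and 6 fell in TAZKo, among them Cep41 (-0.92 and -0.76), or 50% and 60% called. Around Plagl1, on chromosome 10, 5 of 10 neighbours were higher and 0 lower in TAZKo normoxia, where 15.6% of all genes were higher, on a chromosome whose median was higher by 0.31.

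The remaining marker lists showed the following sums. In hypoxia skeletal muscle markers summed to 3.35 to 5.02 CPM in WT and 6.16 to 7.14 CPM in TAZKo. Macrophage and blood markers summed to 10.6 to 11 CPM in WT and 10 to 10.5 CPM in TAZKo normoxia, with Ptprc, Adgre1, Hbb-bs and Hba-a1 at or under the floor. Adipocyte markers summed to at most 0.877 CPM in WT normoxia and 4.25 CPM in WT hypoxia. Pluripotent cell markers summed to at most 2.57 CPM in any group, with Pou5f1, Sox2, Zfp42 and Esrrb at or under the floor. Neural markers summed to 212 to 251 CPM in WT and 229 to 252 CPM in TAZKo normoxia, with Sox10 and Olig2 at or under the floor.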
